A study of Mus musculus with 8 samples.

Results

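The 8 genes for proteins that sit at the sarcomere and respond to mechanical load are the ankyrin repeat genes Ankrd1, Ankrd2 and Ankrd23, the LIM domain genes Csrp3, Fhl1, Fhl3 and Lmcd1, and the Xin repeat gene Xirp1. They were chosen by name, with earlier results of these data known, and all 8 were found among the 55487 genes of the deposited RNA-seq table. The samples came from 8 male mice of the strain C57BL/6J, aged 10 weeks, whose hindlimbs were both held in casts for 8 days. Each mouse received K14Q MOTS-c intraperitoneally at 15 mg/kg/day, split into 2 injections per day, over those 8 days. MOTS-c is a short peptide encoded in mitochondrial DNA, and K14Q is its form with a lysine-to-glutamine change. The 8 mice formed 1 group that shared cast and peptide, and mice without a cast, mice with a cast and vehicle, and mice given the unchanged peptide were not analysed here. The values below therefore describe levels, spread and relations between mice, and no effect of cast or peptide was tested.

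A muscle fibre senses load at its Z-disc, where actin filaments of adjoining sarcomeres are anchored, and along titin, the elastic filament that spans the sarcomere. Ankrd1, Ankrd2 and Ankrd23 form a family of ankyrin repeat proteins that bind titin at the elastic I-band and can also enter the nucleus. Csrp3 (muscle LIM protein), the LIM-only proteins Fhl1 and Fhl3 and the LIM and cysteine-rich domain protein Lmcd1 carry zinc-binding LIM domains that dock onto other proteins, while Xirp1 (Xin) binds actin filaments and filamin C at attachment sites and at damaged fibre segments. In skeletal muscle, several of these genes are known to rise with stretch, exercise, injury or denervation, and Ankrd2 and Csrp3 are known as genes of slow fibres.

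The DNA upstream of the genes is shown for 4 of them, chosen after their levels were seen. Ankrd2, Lmcd1 and Fhl1 were highest in mouse 5, and Ankrd1 was highest in mouse 7. Whether the sequences bear on these levels was not tested. Promoters were taken from RefSeq on GRCm38.p6, with an entry for 7 of the 8 genes and 10 entries in all, and each window holds the 250 bases before the listed start, read 5′ to 3′ on the strand of the gene. Capitals mark matches, on either strand, to MCAT (CATTCC, the element of TEAD factors), the CArG box (the element of SRF) and the E-box (CANNTG, the element of MyoD and related factors). The MEF2 site was also searched.
Ankrd2, chr19:42035777-42036026, plus strand: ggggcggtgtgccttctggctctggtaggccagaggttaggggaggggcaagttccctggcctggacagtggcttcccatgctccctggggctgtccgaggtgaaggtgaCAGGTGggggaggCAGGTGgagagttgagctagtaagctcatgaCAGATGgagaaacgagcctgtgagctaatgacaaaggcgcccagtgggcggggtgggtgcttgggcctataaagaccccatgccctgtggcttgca
Lmcd1, chr6:112273508-112273757, plus strand: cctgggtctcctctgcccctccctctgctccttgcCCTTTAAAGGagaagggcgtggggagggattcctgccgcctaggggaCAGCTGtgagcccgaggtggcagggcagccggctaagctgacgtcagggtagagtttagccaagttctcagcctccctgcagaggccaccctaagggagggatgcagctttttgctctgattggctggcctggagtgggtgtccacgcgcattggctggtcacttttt
Fhl1, chrX:56779433-56779682, plus strand: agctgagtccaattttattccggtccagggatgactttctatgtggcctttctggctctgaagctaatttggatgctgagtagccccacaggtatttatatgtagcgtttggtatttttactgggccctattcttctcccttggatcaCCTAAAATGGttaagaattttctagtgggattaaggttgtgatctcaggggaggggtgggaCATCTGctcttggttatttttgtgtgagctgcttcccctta
Ankrd1, chr19:36119845-36120094, minus strand: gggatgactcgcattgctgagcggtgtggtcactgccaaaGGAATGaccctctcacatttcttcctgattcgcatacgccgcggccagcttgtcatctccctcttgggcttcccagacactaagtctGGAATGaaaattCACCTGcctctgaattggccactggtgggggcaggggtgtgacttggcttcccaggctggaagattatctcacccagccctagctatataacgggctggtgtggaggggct
The Ankrd1 window held 2 MCAT matches, at 210 to 205 and at 123 to 118 bases before the start, and the windows of Lmcd1 and Fhl1 held a CArG box at 215 to 206 and at 102 to 93 bases before the start. The Fhl1 match lay in 1 of its 2 listed windows. The bases right after the start of that window were not found in an annotated Fhl1 transcript, unlike those of the other window. Ankrd2 held 3 E-boxes and neither of the other elements, the windows of Ankrd23 held 1 MCAT match and 2 E-boxes, those of Csrp3 held E-boxes only, and that of Fhl3 held no match. No member window held a MEF2 site. Among all 32851 promoter windows of the same length, MCAT was found in 12.6%, a CArG box in 1.47%, a MEF2 site in 2.92% and an E-box in 66.2%. A match describes the letters in the window and was not tested as a binding site.

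The libraries held 23985356 to 33012497 counts per mouse, recovered from values that the authors had divided by a size factor, and 15135 genes reached 10 counts in all 8 libraries. The size factors spanned 1.33-fold, and mice 3 and 5 had the highest totals and the highest size factors. All 28 pairs of libraries differed beyond counting error, with a chi-square of at least 16.1 per degree of freedom, so none was a copy. The labels name the tissue as vastus lateralis muscle, whereas the design text and the study's methods name gastrocnemius. Skeletal muscle fibres were present in every library, with all 6 fibre identity markers tested, from myoglobin gene Mb at 27268 ± 4376 normalized counts (SD, n = 8) to fast troponin T gene Tnnt3 at 335729 ± 67258. These markers do not separate the muscles named.

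Ankrd23, which encodes the diabetes-related ankyrin repeat protein, was per kilobase of exon the most abundant of the titin-binding ankyrin genes. It lies on chr1:36530188-36536883 of the minus strand (ENSMUSG00000067653; all gene positions are on GRCm38), and its level was 60334 ± 7124 normalized counts (SD, n = 8), with 51722 in the lowest mouse, a median of 60603 and 70129 in the highest. No mouse stood apart for this gene. However, 2109 of its exon bases, or 78.2%, are shared on the same strand with the protein-coding model Gm42417, whose level in each mouse was 95.7 to 96.7% that of Ankrd23. How the counting assigned reads that fall in both models is not given in the sources used here, so the level of Ankrd23 is uncertain. The 7 remaining genes shared no exon base with another gene.

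Ankrd1, a transcriptional cofactor as well as a titin-binding protein (ENSMUSG00000024803, chr19:36111961-36120099, minus strand), was measured at 733, 1476, 2172, 2948, 2820, 1607, 2987 and 2562 normalized counts in mice 1 to 8. Mouse 1 was lowest, and mice 7, 4 and 5 were highest at nearly the same level. The mean was 2163 ± 820 (SD, n = 8). Ankrd2, a titin-binding protein that also interacts with transcription factors (ENSMUSG00000025172, chr19:42036000-42045110, plus strand), was measured at 2534, 1593, 4636, 1866, 8134, 1705, 1434 and 1546 normalized counts. Mice 5 and 3 were highest, mouse 1 came next, and the other 5 mice lay between 1434 and 1866. Its mean of 2931 ± 2352 (SD, n = 8) was set largely by these mice, since the median was 1786.

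Csrp3, the Z-disc cofactor of muscle differentiation (ENSMUSG00000030470, chr7:48830398-48848033, minus strand), was measured at 906, 344, 2288, 219, 2063, 484, 241 and 304 normalized counts in mice 1 to 8. Mice 3 and 5 were more than 2-fold above mouse 1, which was itself above the other 5 mice. The mean was 856 ± 845 (SD, n = 8) and the range 10.5-fold, the widest of the 8 genes, and the lowest library still held 199 counts of this gene. Lmcd1, known from the heart as an activator of calcineurin signaling (ENSMUSG00000057604, chr6:112273758-112330425, plus strand), was measured at 1260, 1160, 2131, 1114, 4539, 1109, 1115 and 1062. Its values in the 6 mice other than mice 3 and 5 were nearly equal, at 1136 ± 68.1 (SD, n = 6), whereas mouse 3 was 1.69-fold above the highest of them and mouse 5 higher still.

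Fhl1, per kilobase of exon the most abundant of the LIM genes (ENSMUSG00000023092, chrX:56731787-56793346, plus strand) and a titin-associated protein mutated in inherited myopathies, was measured at 21005, 10318, 17911, 11784, 36074, 9688, 11481 and 9661 normalized counts in mice 1 to 8. Mouse 5 was highest, mice 1 and 3 followed, and the other 5 mice lay close together between 9661 and 11784. Fhl3, a relative that binds actin (ENSMUSG00000032643, chr4:124700701-124708611, plus strand), was measured at 3154, 2227, 2232, 2077, 3583, 2075, 2358 and 3353. Here mice 5, 8 and 1 were highest, and mouse 3 lay among the low mice, unlike for Csrp3, Ankrd2 and Lmcd1. Xirp1 (ENSMUSG00000079243, chr9:120013755-120023598, minus strand) was measured at 3115, 2986, 6305, 4395, 14629, 3716, 3790 and 2447. Mouse 5 held more than 2-fold the value of mouse 3, which was the next, and mouse 8 held the least.

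**Figure D1:**
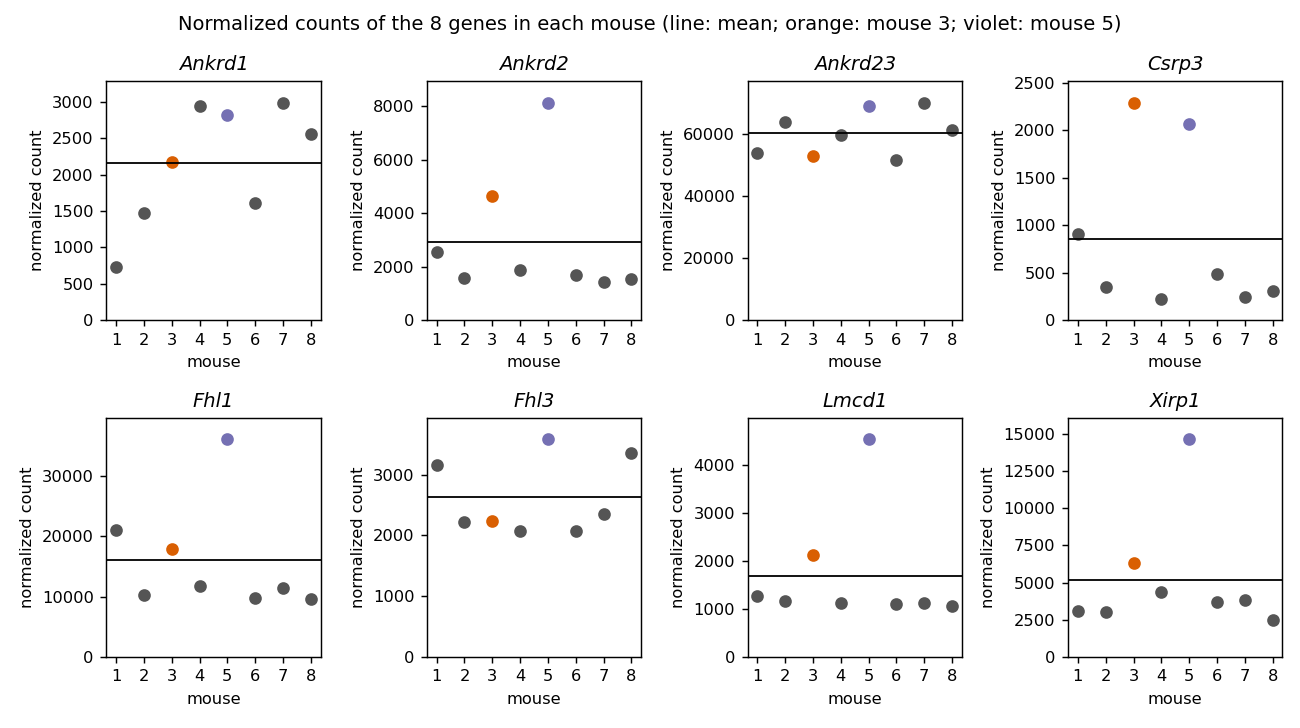
Each panel plots the normalized count of 1 gene (vertical axis from 0) in mice 1 to 8 (horizontal axis), with the mean as a line. Mouse 5 (violet) is highest for Ankrd2, Fhl1, Fhl3, Lmcd1 and Xirp1, and mouse 3 (orange) is highest for Csrp3 at 2288 normalized counts, while Ankrd1 and Ankrd23 are highest in mouse 7.

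The levels of the 8 genes were ranked against each other per kilobase of merged exons. On that scale the order was Ankrd23, Fhl1, Ankrd2, Fhl3, Lmcd1, Xirp1, Ankrd1 and Csrp3, with means from 22371 normalized counts per kb for Ankrd23 (rank 56 of the 15135 genes) through 4305 for Fhl1 (rank 259) and 2576 for Ankrd2 (rank 474) down to 321 for Csrp3 (rank 3330). Neighbors in this order were compared within each mouse with an exact two-sided sign-flip permutation test, which cannot go below p = 0.0078 with 8 mice, and the p-values of the 7 neighboring pairs were not adjusted. Ankrd23 lay above Fhl1 by 2.53 ± 0.68 (log2 ratio per kb, SD over mice) and Fhl1 above Ankrd2 by 0.88 ± 0.38, both in 8 of 8 mice with exact p = 0.0078. The test does not cover the uncertainty in the level of Ankrd23 that comes from its overlap with Gm42417. Fhl3 lay above Lmcd1 in 7 of 8 mice (log2 ratio 0.86 ± 0.65, exact p = 0.023). Ankrd1 lay above Csrp3 in 6 of 8 mice, with mice 1 and 3 in the opposite order (log2 ratio 1.68 ± 1.63, exact p = 0.047). The remaining neighbors did not differ beyond their spread, with exact p = 0.19 for Ankrd2 over Fhl3, 0.12 for Lmcd1 over Xirp1 and 0.69 for Xirp1 over Ankrd1. The place of Ankrd1 among these depended on the length used, since with the longest transcript as length it came to 1071 normalized counts per kb, above Lmcd1 at 975 and Xirp1 at 886. It also came above Xirp1 without mouse 5.

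**Figure D2:**
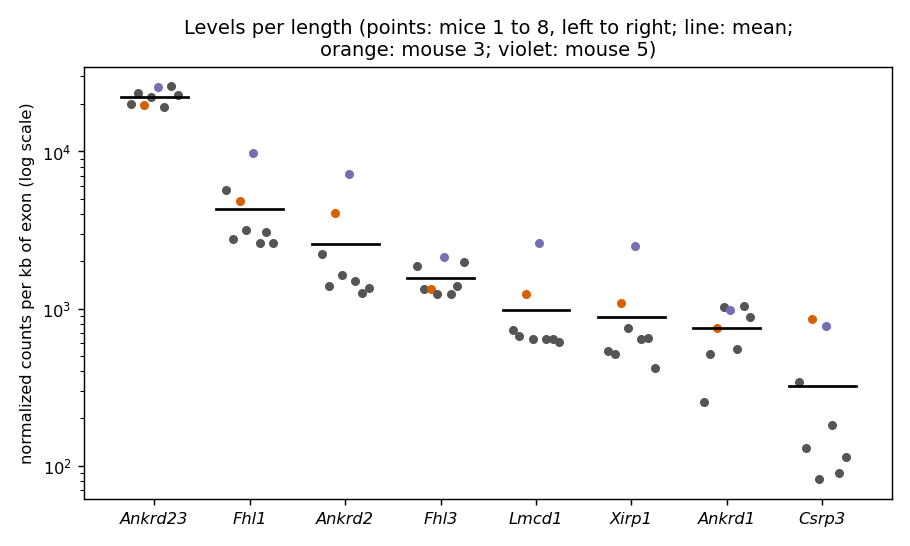
Normalized counts per kb of merged exon on a log scale (vertical axis) are plotted for each gene in order of its mean (line), with mice 1 to 8 from left to right within a gene. Ankrd23, whose level is uncertain because of its overlap with Gm42417, lies above every other gene in every mouse. Lmcd1, Xirp1 and Ankrd1 overlap, with means of 975, 886 and 749.

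Most of the 8 genes differed between mice by more than most genes of the muscle, whereas Ankrd23 was near or below the middle of all genes. Counts of 8 of 8 genes differed between mice beyond counting error (chi-square test, Benjamini-Hochberg adjusted over all genes tested), a call that 81% of all genes also received and that therefore says little about these 8. A highest mouse at least 2-fold the lowest was seen for 6 of the 8 genes, all but Ankrd23 and Fhl3, against 22.9% of all genes. The coefficient of variation was 98.7% for Csrp3, 80.2% for Ankrd2, 77.3% for Xirp1, 71.5% for Lmcd1, 57.0% for Fhl1, 37.9% for Ankrd1, 23.7% for Fhl3 and 11.8% for Ankrd23, beside a median of 15.6% over all genes. Without mouse 5 alone it fell to 29.8% for Lmcd1, 33.1% for Xirp1, 34.3% for Fhl1 and 52.1% for Ankrd2. Because the coefficient of variation falls with abundance, each gene's DESeq2 dispersion was also set against the fitted trend at its mean. It was 30.6 times the trend for Csrp3, more than for 99.99% of genes, 17.0 times for Ankrd2, 14.6 for Xirp1, 12.1 for Lmcd1, 9.66 for Fhl1 and 7.48 for Ankrd1. Fhl3 was at 2.20 times the trend and Ankrd23 at 0.561 times, the latter still more than for 51.6% of genes. Hence 7 of the 8 genes lay above the trend, as did 27.5% of all genes. Without mice 3 and 5, a choice made after seeing the values, 3 of the 8 genes kept a range of 2-fold or more, against 18.2% of all genes, and these were Csrp3 (4.14-fold), Ankrd1 (4.08-fold) and Fhl1 (2.17-fold).

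**Figure D3:**
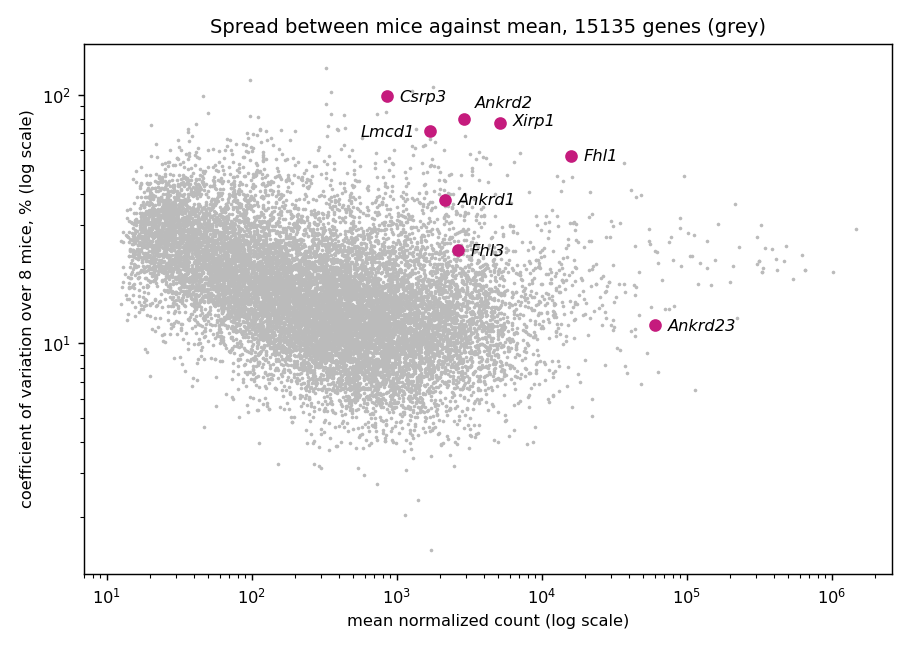
The coefficient of variation over the 8 mice (vertical log axis, percent) is plotted against the mean normalized count (horizontal log axis) for 15135 genes in grey and the 8 genes in pink. Csrp3, Ankrd2, Xirp1, Lmcd1 and Fhl1 lie along the upper edge of the cloud, from 98.7% to 57.0%, whereas Ankrd23 lies within it at 11.8%.

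The next question was whether the genes rose and fell in the same mice. In bulk tissue, fewer cells of a type and less RNA per cell cannot be told apart, and these relations across 8 mice are descriptions of shared order, with p-values from an exact permutation of all 40320 pairings of the mice. Of the 121072 relations between a member and any gene tested, 0% passed an adjusted p of 0.05 (Benjamini-Hochberg, smallest adjusted p = 0.53). An exact permutation p cannot go below 2.5e-05 here, so a relation could pass only if many reached such low values together. Among the 28 pairs of members, 24 had r above 0 and 10 had an unadjusted exact p under 0.05, and those 10 were all the pairs among Ankrd2, Csrp3, Fhl1, Lmcd1 and Xirp1. Of all genes tested, 1.51% (Csrp3) to 5.95% (Ankrd1) had r above 0 with a member at that unadjusted p. The median r over all genes was -0.03 (Fhl3) to 0.04 (Xirp1). For Spearman's rho, 4 of the 28 pairs had an unadjusted exact p under 0.05, and the share over all genes is not reported here for rho. Mice 3 and 5 stood apart for most of the 5 genes, so each r is given beside its value over the other 6 mice.

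Ankrd2 and Lmcd1 were the closest pair, with r = 0.967 (exact p = 0.0014, adjusted 0.57) and rho = 0.738 (exact p = 0.046), and over the other 6 mice r was 0.809. Ankrd2 and Fhl1 gave r = 0.922 (exact p = 0.0041, adjusted 0.60) and rho = 0.810 (exact p = 0.022), with 0.879 over the other 6 mice. Ankrd2 and Csrp3 gave r = 0.912 (exact p = 0.0037, adjusted 0.59) and rho = 0.738 (exact p = 0.046), with 0.766 over the other 6. Thus the titin-binding Ankrd2 kept a positive r with these LIM genes without mice 3 and 5, where the exact p was 0.081 for Lmcd1, 0.065 for Fhl1 and 0.082 for Csrp3. Among the LIM genes, Fhl1 and Lmcd1 gave r = 0.889 (exact p = 0.015, adjusted 0.69) and rho = 0.881 (exact p = 0.0072), with r = 0.886 (exact p = 0.053) over the 6 mice, 0.940 without mice 1 and 5, the farthest for Fhl1, and 0.660 (exact p = 0.12) without mouse 5 alone. Csrp3 gave r = 0.827 with Lmcd1 (exact p = 0.0063, adjusted 0.63; rho = 0.714, exact p = 0.058) and 0.820 with Fhl1 (exact p = 0.014, adjusted 0.69; rho = 0.524, exact p = 0.20), and over the 6 mice these were 0.759 and 0.682.

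The relations of Xirp1 with these 4 genes fell to r = 0.062 or below when mice 3 and 5 were both left out. They stayed at 0.71 to 0.94 without mouse 3 alone and were 0.42 to 0.77 without mouse 5 alone. Whether Xirp1 differed in this from the other pairs was not tested. Over 8 mice, r was 0.946 with Lmcd1 (exact p = 0.0090, adjusted 0.65; rho = 0.619, exact p = 0.12) and 0.904 with Ankrd2 (exact p = 0.0084, adjusted 0.64; rho = 0.667, exact p = 0.083). Without mice 3 and 5 they were 0.018 and 0.062. With Fhl1, r was 0.813 (exact p = 0.023, adjusted 0.71; rho = 0.714, exact p = 0.058) and fell to 0.040. It was 0.417 (exact p = 0.35) without mouse 5 alone and 0.888 without mice 1 and 5. With Csrp3, r was 0.704 (exact p = 0.039, adjusted 0.73; rho = 0.357, exact p = 0.39) and turned to -0.30. The order of Xirp1 among the other 6 mice, with mouse 4 highest and mouse 8 lowest, was therefore not that of Ankrd2, Csrp3, Fhl1 or Lmcd1.

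Ankrd1, Ankrd23 and Fhl3 were not in the 10 pairs. Ankrd1 had r between -0.19 (with Csrp3, exact p = 0.70) and 0.56 (with Ankrd23, exact p = 0.13; rho = 0.55, exact p = 0.17), and none of its 7 pairs had an unadjusted exact permutation p under 0.05. Over the 6 mice without 3 and 5, however, Ankrd1 ran opposite to Csrp3 (r = -0.96), Lmcd1 (r = -0.86) and Ankrd2 (r = -0.77), with mouse 1 lowest for Ankrd1 and highest for these 3 genes. Fhl3 was nearest to Fhl1 (r = 0.588, exact p = 0.12; rho = 0.381, exact p = 0.36), with r = 0.42 without mice 3 and 5 and -0.29 without mice 1 and 5. Ankrd1 and Ankrd23 had r = 0.62 without mice 3 and 5 and 0.84 without mice 1 and 2, the farthest for Ankrd1.

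**Figure D4:**
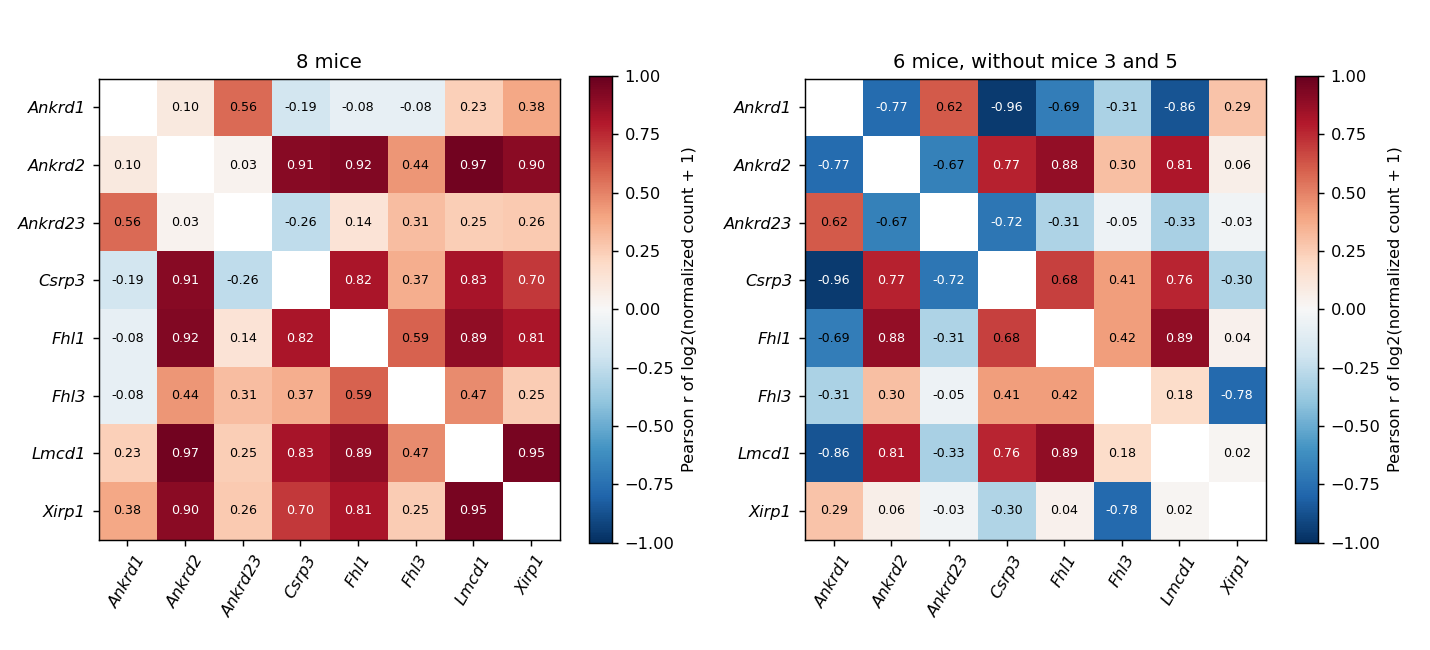
Pearson's r of log2(normalized count + 1) is shown for each pair of the 8 genes, from -1 in blue to 1 in red, over 8 mice on the left and over the 6 mice without mice 3 and 5 on the right. The 10 pairs among Ankrd2, Csrp3, Fhl1, Lmcd1 and Xirp1 are at 0.70 to 0.97 on the left, and on the right Xirp1 is at -0.30 to 0.06 with the other 4 of these genes and at -0.78 with Fhl3, while Ankrd1 and Csrp3 go from -0.19 to -0.96.

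Mice 3 and 5 held the top values of Ankrd2, Csrp3, Lmcd1 and Xirp1, which was the case for 3.14% of all genes tested. These mice were singled out after the members' values were seen, so the shares here are descriptions and no independent comparison. Both mice exceeded the highest of the other 6 by at least 1.5-fold for 12 genes, or 0.0793% of those tested, a threshold set after the values were seen. Csrp3 led these 12 at 2.28-fold, and Ankrd2 (1.83-fold) and Lmcd1 (1.69-fold) were also among them, while Xirp1 reached 1.43-fold. The others included the hemoglobin genes Hbb-bt, Hbb-bs, Hba-a1 and Hba-a2, the heme synthesis gene Alas2, and Lcn2, Atf3 and Tent5c. The hemoglobin transcripts moved with the members. The summed level of the 4 blood markers was 20799 and 23930 normalized counts in mice 3 and 5 and 6022 to 11405 in the other mice, and none of the 4 was at 0 in any library. All 4 blood markers had r above 0 at an unadjusted exact p under 0.05 with Ankrd2 (median r 0.83), Csrp3 (0.74), Lmcd1 (0.86) and Xirp1 (0.87), and none of the 4 did so with Fhl1 (0.64), Ankrd1, Ankrd23 or Fhl3. With Spearman's rho the median was 0.51 for Ankrd2 and 0.73 for Xirp1. Without mice 3 and 5 the median r of the blood markers was -0.39 with Ankrd2 and 0.40 with Xirp1. Library depth moved with the same genes, since r with the total count was 0.78 for Csrp3, 0.66 for Ankrd2, 0.70 for Lmcd1, 0.55 for Xirp1 and 0.68 for Fhl1, as descriptions, and r with the size factor was 0.88, 0.79, 0.71, 0.68 and 0.55 in the same order. The part of blood content or depth in the levels of these genes was not tested.

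Markers of other cells in the muscle also ran with some members. With Ankrd2, Csrp3 and Fhl1, 5 of 5 endothelial and 5 of 5 smooth muscle markers and 3 of 3 adipocyte markers tested had r above 0, with medians of 0.44, 0.50 and 0.51 for Ankrd2, 0.45, 0.59 and 0.56 for Csrp3 and 0.53, 0.52 and 0.58 for Fhl1. At an unadjusted exact p under 0.05 stood the smooth muscle gene Tagln (r = 0.77) and the lipid droplet gene Cidec (r = 0.73), both with Csrp3. Ankrd1 had r below 0 with all 5 fibroblast (median -0.56), all 5 endothelial (median -0.51) and all 5 smooth muscle markers (median -0.19). None of these markers was at 0 in any library. The summed endothelial level was 4037 and 3997 normalized counts in mice 3 and 5 and 3112 to 4760 in the other mice, and the summed smooth muscle level was 3833 and 3382 against 2044 to 3549, so neither set mice 3 and 5 apart from the rest. The summed fibre identity level was 721056 and 938818 in mice 3 and 5, and mouse 3 was the lowest of the 8. The part of these cells in the levels of the members was not tested.

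Each gene was next set against lists of genes for fibre type, signaling and cell type, as the number of list genes with r above 0 and their median r beside that over all genes tested. The share of all genes with r above 0 at an unadjusted exact p under 0.05 was 5.95% for Ankrd1, 3.48% for Ankrd2, 3.98% for Ankrd23, 1.51% for Csrp3, 3.39% for Fhl1, 2.03% for Fhl3, 3.31% for Lmcd1 and 4.71% for Xirp1. Fhl3 had its highest median r with the genes of slow fibres. All 10 slow-fibre genes had r above 0 with Fhl3, 5 of them at an unadjusted exact p under 0.05, and the median r was 0.77 beside -0.03 over all genes. This median was 0.54 with Spearman's rho and 0.65 with library totals. Slow troponin C gene Tnnc1 was highest (r = 0.84) and the slow calcium pump gene Atp2a2 lowest (r = 0.31). The summed slow-fibre level was 30344, 25660 and 25400 normalized counts in mice 1, 8 and 5 and 15976 to 22199 in the other 5, so the mice high in Fhl3 were also the mice high in slow-fibre genes. Myh7, the slow myosin heavy chain and the gene of the list with the highest normalized count, averaged 6061 ± 1816 normalized counts (SD, n = 8). Fhl3 also had r above 0 with 8 of 8 fast-fibre genes (median 0.50), of which 1 had an unadjusted exact p under 0.05, and with 6 of 6 fibre identity markers (median 0.58), of which 2 did. The relation was therefore not limited to slow-fibre genes, and whether its r differed between these lists was not tested. The median r with the slow-fibre genes was 0.06 for Ankrd2 and 0.10 for Csrp3, both known as slow-fibre genes. For Ankrd2 it depended on the mice, at 0.34 without mouse 3 and 0.52 without mice 3 and 5. Its sign turned in other settings, at -0.16 without mouse 5 and -0.05 without mouse 2. It was -0.41 for Ankrd1, which had r below 0 with all 10.

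Ankrd1 ran with immediate early genes, which answer a stimulus within minutes. Of the 7 such genes tested, 6 had r above 0, 3 of them at an unadjusted exact p under 0.05, and the median r was 0.72 beside 0.01 over all genes. Egr1 was highest (r = 0.86) and Jun, with the highest normalized count of them, was lowest (r = -0.37). This median was 0.33 without mouse 1, the mouse lowest in Ankrd1, and 0.40 with Spearman's rho. Ankrd1 had r above 0 with 8 of 8 genes of the denervation list, which includes acetylcholine receptor subunits and myogenin (median 0.47, 1 at an unadjusted exact p under 0.05), and with 7 of 7 genes of the atrophy list of ubiquitin ligases and Foxo targets (median 0.52, 1 at an unadjusted exact p under 0.05). Without mouse 1 the median with the denervation list was 0.23. The median r with the denervation list was below 0 for the 7 other members, from -0.14 for Ankrd23 and Xirp1 to -0.56 for Fhl3. The difference from Ankrd1 was not tested.

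**Figure D5:**
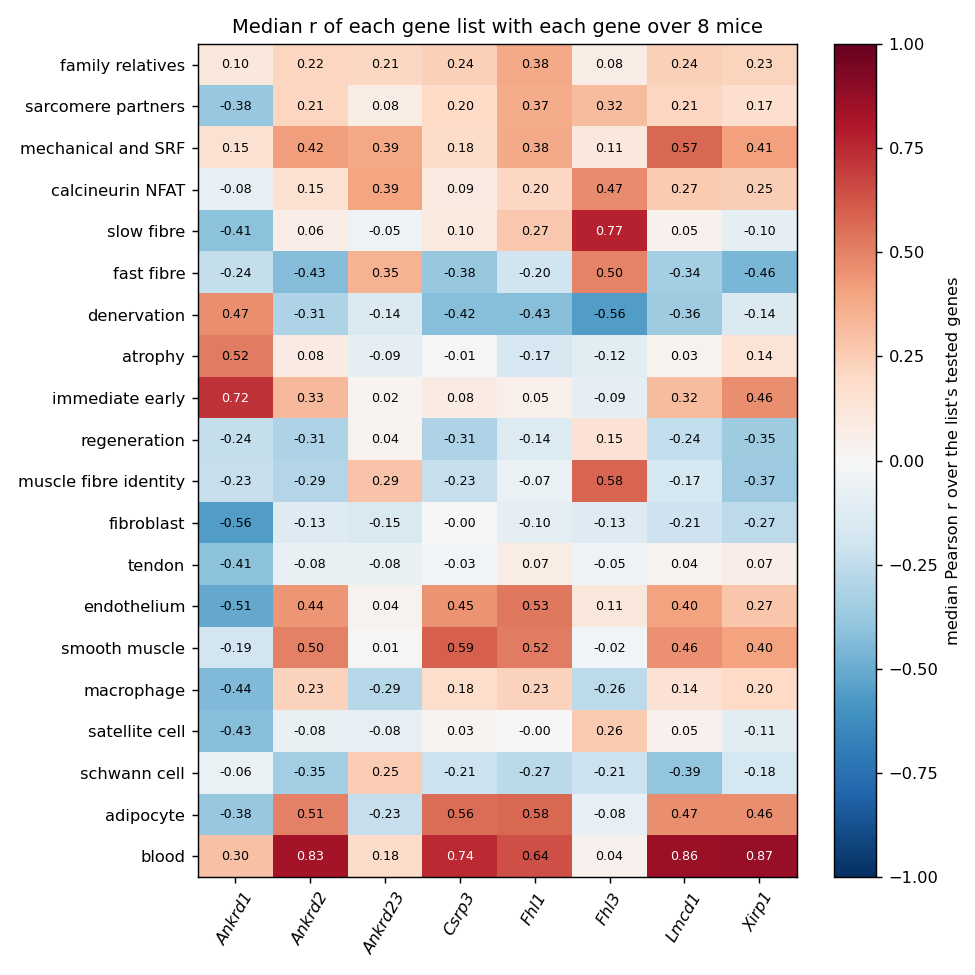
Each cell gives the median Pearson's r over 8 mice between 1 of the 8 genes (columns) and the tested genes of a list (rows), from -1 in blue to 1 in red. The deepest red cells are the blood list with Xirp1, Lmcd1, Ankrd2 and Csrp3 (0.87, 0.86, 0.83 and 0.74), the slow-fibre list with Fhl3 (0.77) and the immediate early list with Ankrd1 (0.72).

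Relatives and binding partners of the 8 genes were followed in the same way. The family list of LIM, Xin and Z-disc relatives had 16 of 17 genes tested, and its median r was between 0.08 for Fhl3 and 0.38 for Fhl1. The relative with the highest normalized count was the nebulin-related Nrap at 111934 ± 30519 normalized counts (SD, n = 8), and its r was 0.86 with Xirp1 and 0.77 with Lmcd1. Xirp2, the closest relative of Xirp1, had r = 0.35 with it. Xirp1 was closest to Lims1, a LIM adaptor of integrin attachments (r = 0.93), Fhl3 to the Z-disc gene Pdlim5 (r = 0.94) and Ankrd23 to Pdlim3 (r = 0.92). In the list of sarcomere partners, 12 of 12 genes were tested. Ankrd1 had r above 0 with only 2 of them (median -0.38). The other members had r above 0 with 7 to 10 of them, with medians from 0.08 for Ankrd23 to 0.37 for Fhl1. Fhl1 was closest to Actn2, the alpha-actinin of the Z-disc (r = 0.96), Fhl3 to the titin cap gene Tcap (r = 0.91), Ankrd1 to the muscle cofilin Cfl2 (r = 0.90) and Xirp1 to its binding partner filamin C, Flnc (r = 0.88). Titin itself, Ttn, with the highest normalized count of them, had r between -0.57 with Ankrd1 and 0.49 with Fhl1.

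Among 12 genes of mechanical signaling through YAP, TEAD and SRF, Xirp1 had r above 0 with 9, of which 4 had an unadjusted exact p under 0.05, and was closest to Ccn2, a matricellular target of YAP (r = 0.87). Lmcd1 had the highest median r with this list (0.57), and Yap1 was its closest gene (r = 0.79). Of the factors whose elements are named above, Srf had r between -0.44 (Ankrd1) and 0.39 (Ankrd23), and Tead1 had r above 0 with all 8 members, from 0.01 (Ankrd1) to 0.76 (Fhl1). Tead4 was the gene of this list closest to Ankrd1 (r = 0.77) and to Ankrd23 (r = 0.83). Of the 10 genes of calcineurin signaling, Lmcd1 had r above 0 with 7 (median 0.27, 1 at an unadjusted exact p under 0.05), and Nfatc4 was the closest (r = 0.76). This was not particular to Lmcd1. Fhl3 (median 0.47) and Ankrd23 (median 0.39) each had r above 0 with 9 of them, and the lowest median was -0.08 for Ankrd1. Nfatc4 had a higher r with Fhl1 (0.85) and Ankrd2 (0.83).

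The genes with the most similar pattern over the 8 mice were named for each member by the highest r among all genes tested, as a description. Ankrd1 was followed by the proteasome subunit gene Psmd11 (r = 0.991), Ubxn4 (0.977) and Arpp19 (0.973). Ankrd2 and Lmcd1 were each among the other's 3 nearest genes (0.967), which also included Ick for Ankrd2 (0.959) and Adamtsl4 for Lmcd1 (0.951). Csrp3 was nearest to Gm16062 (0.929), the insulin-responsive glucose transporter gene Slc2a4 (0.921) and Ankrd2 (0.912). Fhl1 was nearest to Klhl34 (0.967), Myh10 (0.961) and Actn2 (0.958), and Fhl3 to the retinaldehyde dehydrogenase gene Aldh1a1 (0.985), Zfp949 (0.959) and Rbmx2 (0.955). Xirp1 was nearest to Spcs2 (0.975), Snai3 (0.966) and Mcur1 (0.966), none of which was among the nearest 3 of another member. Ankrd23 was nearest to the overlapping Gm42417 (0.999), then to Ppp4r1 (0.972) and Traf6 (0.959).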

How the data were processed

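Poly-adenylated RNA of 8 muscles was sequenced. The authors aligned reads to GRCm38 (STAR), counted genes (summarizeOverlaps) and applied DESeq2 scaling. The annotation release, the strand setting and the rule for multi-mapping reads are not given in the sources used here. In the deposited signal, each count had been divided by a library's size factor: 100% of values were whole multiples of 1 read within 0.01 of a read, so counts were recovered. Counts are reads without molecular identifiers, and counting error excludes duplicates. Symbols and positions came from GENCODE M21 (55227 of 55487 genes matched). The lists, like the members, were chosen knowing earlier results of these data. The genes named are the 8 members, for each the 3 genes of highest r, and, from each list, the genes of highest and lowest r and the most abundant gene, plus a few chosen after their values were seen, and some genes that meet the rule are not reported here. Each sample is 1 mouse of 1 group. The sign-flip p-values are set against the spread between mice and the relation p-values against other pairings of the mice. The chi-square p-values are set against counting error.

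Levels are the deposited values. Spread was tested by chi-square on recovered counts, and relations by Pearson's r of log2(normalized count + 1) with exact permutation, Benjamini-Hochberg over 15135 genes that reached 10 counts in all libraries and 8 members. With 1 condition, edgeR and DESeq2 gave scaling factors and dispersions and no test between groups. Alternatives were TMM factors, library totals, a pseudocount of 5, Spearman correlation, a mean of at least 5 normalized counts, the median over mice, longest transcript lengths, edgeR dispersions and leaving out each mouse. Leaving out mice 3 and 5, DESeq2 factors of these libraries alone and the 1.5-fold threshold were chosen after seeing the data. Scripts were tested on simulated data. Software was R 4.3.3 with edgeR 4.0.16 and DESeq2 1.42.0, and Python 3.11.15 with scipy 1.17.1, numpy 2.4.6 and pandas 2.3.3.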

Additional observations from a re-analysis of the deposited data

Results flagged for a closer look

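Mouse 5 stood apart from the other 7 mice for 3 of the genes. The gap between mouse 5 and the next mouse, divided by the whole range of the 8 mice, was 0.692 for Lmcd1, 0.683 for Xirp1 and 0.571 for Fhl1, each above Dixon's 95% critical value for 8 samples. Chance alone marks about 1 in 20 groups in this way, and 8 genes were examined that do not vary independently of each other. For Ankrd2, where mouse 5 was also highest, the gap was 0.522 of the range and below the critical value. Mouse 5 had the deepest library (33012497 counts) and the highest summed blood marker level. Whether either bears on these values was not tested.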

How the results depend on the processing

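Levels moved by less than the spread between mice under TMM factors, library totals and the median, 6 members stayed in the top 5% of dispersion over trend with edgeR, and 0 of 28 pairs passed an adjusted p of 0.05 under each alternative run. Leaving out mice 3 and 5 lowered the genes with a 2-fold range from 6 to 3, the pairs at an unadjusted exact p under 0.05 from 10 to 2, neither of them among the 10 (whose lowest exact permutation p was then 0.053), and the pairs with r above 0 from 24 to 15, and r of Csrp3 and Xirp1 reversed to -0.30. Spearman correlation gave 4 pairs in place of 10. Leaving out 1 mouse in turn gave 4 to 10 such pairs, 15 to 26 pairs with r above 0, 6 genes with a 2-fold range each time, and 2 to 4 neighboring pairs in the same order in every mouse. The lowest counts of pairs, 4 and 15, came without mouse 5, and so did the 4 neighboring pairs, in an order that then placed Ankrd1 above Xirp1. The 26 came without mouse 1. Without mouse 3, the 4 relations of Xirp1 had exact permutation p-values from 0.067 to 0.10, with r of 0.71 to 0.94, close to those over 8 mice. The coefficient of variation without mouse 5 fell from 71.5% to 29.8% for Lmcd1, from 77.3% to 33.1% for Xirp1, from 80.2% to 52.1% for Ankrd2 and from 57.0% to 34.3% for Fhl1. The median r of Ankrd1 with the denervation list was 0.23 without mouse 1. The causes were not tested. No paired analysis was possible because all 8 mice belong to 1 group. With 8 mice an exact permutation p cannot go below 2.5e-05, and this limit is higher with fewer mice. After adjustment over 121072 relations, a pair could pass only if many relations reached such low p-values together. The unchanged 0 of 28 pairs is therefore no sign of stability. Counting error is small at the 199 or more counts of each member.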

Other observations

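Of the 8 fast-fibre genes, all had r below 0 with Ankrd2, Csrp3, Lmcd1, Xirp1 and Ankrd1, with medians from -0.24 for Ankrd1 to -0.46 for Xirp1, and all had r above 0 with Ankrd23 (median 0.35). None of these had an unadjusted exact permutation p under 0.05 with Ankrd2, Csrp3, Lmcd1, Xirp1, Ankrd1 or Ankrd23. Macrophage markers had a median r between -0.44 with Ankrd1 and 0.23 with Ankrd2 and Fhl1, satellite cell markers between -0.43 with Ankrd1 and 0.26 with Fhl3, Schwann cell markers between -0.39 with Lmcd1 and 0.25 with Ankrd23, and tendon markers between -0.41 with Ankrd1 and 0.07 with Fhl1 and Xirp1. Regeneration genes had a median r between -0.35 with Xirp1 and 0.15 with Fhl3.

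Relatives in the same families are given as normalized counts, not per length, so that no order between genes is read from them. Csrp2 was measured at 46.8 ± 5.98 normalized counts and Csrp1 at 545 ± 102 (SD, n = 8). Fhl2 was measured at 81.0 ± 32.5 and Fhl4 at 30.8 ± 6.77, and Fhl5 had fewer than 10 counts in at least 1 library. Xirp2 was measured at 91107 ± 18620.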
